A study of Homo sapiens with 30 samples.

Results

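Mitosis genes were followed through the whole count table of a HepG2 experiment with the multikinase inhibitor sorafenib. The set holds 44 of the 60107 genes in the table, chosen by symbol as cyclins, kinases, kinesins, centromere and kinetochore proteins and components of the spindle checkpoint. The rule names genes and uses no measured value, but the list was drawn up with earlier results of these data known. All 44 were found, all had at least 1 count in each of the 30 libraries, and all 44 passed the filter on low counts in every fit. The lowest raw count of a member in a library was 13, for PLK4.

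HepG2 is an established human liver tumour line, labelled here as hepatocellular carcinoma cells. All cultures were transfected 24 h before treatment, and all then received either 10 µM sorafenib or its solvent dimethyl sulfoxide (DMSO). In the 6 h experiment the cells carried an inhibitor control (IC) or an inhibitor of miR-200c-3p (I200c). In the 24 h experiment they carried a mimic control (MC), or else a miR-222-5p mimic (M222) or a miR-512-3p mimic (M512). There were thus 10 groups of 3 replicates, with no untransfected culture among them, and the study used these libraries to look for transcripts regulated by each miRNA. The study describes the replicates as independent and biological without saying what was repeated, so p-values measure the spread between these libraries.

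Mitosis is driven by cyclin-dependent kinase 1 bound to A and B type cyclins, and further kinases of the Polo, Aurora and Nek families then build the spindle and sort the chromosomes. The spindle checkpoint holds the anaphase promoting complex back until every kinetochore is attached, after which CDC20 and UBE2C direct the destruction of cyclin B and securin and the cell divides. Most of these genes are transcribed late in the cell cycle, when the repressor complex DREAM gives way to B-MYB and FOXM1 at promoters that carry CCAAT boxes and the cell cycle homology region (CHR). In bulk RNA a smaller share of cells in late cell cycle and less RNA in each such cell cannot be told apart.

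The promoters are shown first, because the letters shared by the members were not used to choose them. RefSeq promoters on GRCh38.p14, each from 250 bases before to 50 bases after the transcription start, were matched for 37 of the 44 members, which have 49 listed promoters. AURKA, BUB3, TTK, BIRC5, UBE2C, TPX2 and FOXM1 had no entry. The CHR core was searched as TTTGAA and the CCAAT box as CCAAT, both on either strand, and a match could overlap one of the other motif. The CHR core was present for 27 of the 37 matched members (73%), against 13.7% of the 9727 genes tested at 24 h with a listed promoter and 18.2% of all 27305 genes in the table of promoters. A CCAAT box was present for 31 members (83.8%), against 43.5% of the genes tested at 24 h. Both were present for 23 members (62.2%), against 7.48%. The 30 S phase genes, of which 26 had a promoter, shared the CCAAT box (69.2%) but had the CHR core in 1 gene (3.85%). A second list of 40 mitosis genes resembled the members, with the CHR core in 22 of 33 matched genes (66.7%).

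Windows around these matches are printed for members whose levels are described below, 5′ to 3′ on the gene's strand, with the match in capitals (TTTGAA for the CHR core, CCAAT for the CCAAT box).
PLK1, chr16:23678850-23678875, plus strand: cagcgccgcgTTTGAAttcggggagg
CDCA8, chr1:37692483-37692508, plus strand: gactgtggagTTTGAAttgggtggcg
CENPA, chr2:26786028-26786053, plus strand: gagcgagcgaTTTGAAcgcgagcggc
KIF4A, chrX:70290060-70290085, plus strand: ccgggacggaTTTGAAacttggcggt
ANLN, chr7:36389832-36389857, plus strand: gaaattcaaaTTTGAAcggctgcaga
CDK1, chr10:60778455-60778480, plus strand: gcgcggtgagTTTGAAactgctcgca
KIF20B, chr10:89701604-89701629, plus strand: gccgccattgTTTGAAtttgaaaacg
CCNB1, chr5:69167053-69167077, plus strand: ccggcagccgCCAATgggaagggag
CCNB1, chr5:69167085-69167109, plus strand: cacgaacaggCCAATaaggagggag
The CHR matches marked here for PLK1, CDCA8, CENPA, KIF4A, ANLN and CDK1 began 29, 23, 18, 34, 20 and 13 bases before the listed start, and that of KIF20B began 25 bases after it. ANLN, KIF20B and CDK1 had further CHR matches that are not marked, for CDK1 also 1 that began 10 bases after the start. The listed promoter of CCNB1 had no TTTGAA and held CCAAT boxes 87 and 55 bases before the start. Over the 27 members with a match, the one nearest to the start lay within 50 bases for 24, at a median distance of 23 bases. These are matches of letters, and binding was not measured.

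**Figure D1:**
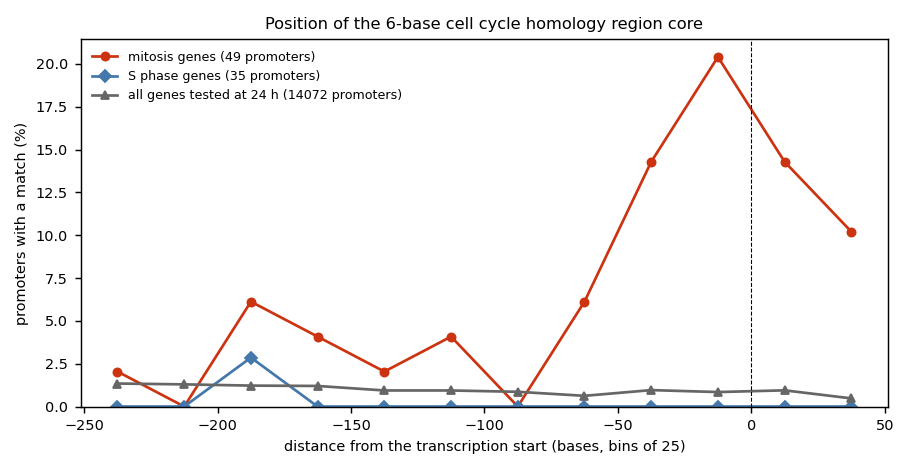
Share of promoters (y axis, percent) in which a CHR core begins in each bin of 25 bases (x axis, distance from the transcription start in bases), for the mitosis genes, the S phase genes and all genes tested at 24 h. In the mitosis genes the share reached 20.4% in the bin just before the start, where the share over all genes tested was 0.846%.

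Seed matches of the 3 miRNAs in the members' transcripts were described from sequence alone. The mature miRNAs, from RefSeq, are printed with bases 2 to 8, the seed, in capitals.
hsa-miR-200c-3p: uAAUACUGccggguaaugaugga
hsa-miR-222-5p: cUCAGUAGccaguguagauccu
hsa-miR-512-3p: aAGUGCUGucauagcugagguc
The 3 seeds differ, so the 3 oligonucleotides form no shared seed group. A site is the 7-base complement of the seed in the 3′ untranslated region (UTR) of the gene's GENCODE 44 transcript. Of the 44 members, 3 held the site of miR-222-5p (6.82%, against 10.5% of 11187 genes tested at 24 h), 3 that of miR-512-3p (6.82%, against 23%) and 6 that of miR-200c-3p (13.6%, against 19.1%). The members' UTRs were shorter, with a median of 702 bases against 1319. The sites for miR-222-5p were these, with the site in capitals.
AURKA, miR-222-5p, chr20:56370081-56370107, minus strand: caggaacatgCTACTGAagtttatttt
KIF4A, miR-222-5p, chrX:70420474-70420500, plus strand: gctaagtcacCTACTGAagagagaacc
BUB3, miR-222-5p, chr10:123167027-123167053, plus strand: gcacattagcCTACTGAgagcttagat
CCNB1 had no site for either mimic.

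Total counts ran from 3938760 to 9657060 per library (median 6460790), which puts the level allowed by a count of 0, taken as 3 counts, at 0.311 to 0.762 CPM. Levels are CPM, the count of a gene scaled to a fixed library size, corrected by the trimmed mean of M values (TMM), and since these libraries read 1 fragment per transcript near its 3′ end they were not divided by length. All 8 hepatic markers checked were present in all 30 libraries, at 0.602% to 1.60% of the counts. Among 9 markers of blood, endothelial and stromal cells, CD68 had counts in all 30 libraries (up to 10.9 CPM), COL1A1 in 26 (up to 11.9 CPM), PECAM1 in 17, CDH5 in 8 and PTPRC in 1, CD3E, COL1A2, DCN and LUM were at 0 throughout, and the summed level was 1.33 to 17.1 CPM. The members spanned a wide range, from a mean of 7.44 CPM for KIF18A, a kinesin that limits chromosome oscillation, to 1996 CPM for TOP2A, the DNA topoisomerase that untangles sister chromatids, with a median of 65.8 CPM. Their residual spread between replicates was a median SD of 0.304 on the log2 scale, against 0.444 over all genes.

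Sorafenib for 24 h left most mitosis genes without a called change. Averaged over MC, M222 and M512, 6 of the 44 fell and 1 rose at an adjusted p under 0.05 (edgeR's quasi-likelihood test with Benjamini-Hochberg adjustment over all genes tested, here and below). That is 15.9% of the members, beside 25.8% of the 13244 genes tested. The lower calls made up 13.6% of the members and 12.4% of all genes, and the higher calls 2.27% of the members and 13.4% of all genes. The median log2 fold change of the members was -0.09 and that of all genes -0.04. With total counts in place of TMM these medians were -0.23 and -0.17, and 12 members were called, 11 of them lower. The genes that fell were CCNB1, KIF20B, BIRC5, CDC25C, KIF4A and AURKB, and the gene that rose was ANLN.

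CCNB1, at chr5:69167135-69178245 on the plus strand, encodes cyclin B1, the partner of CDK1 at mitotic entry, and its levels differed most. In M512 its level was 83.9, 81.8 and 111 CPM in DMSO and 30.9, 20.7 and 24.7 CPM in sorafenib. In M222 it was 119, 88.0 and 104 CPM in DMSO and 60.7, 75.6 and 54.3 CPM in sorafenib. In MC it was 74.3, 89.7 and 96.6 CPM in DMSO and 80.7, 104 and 52.2 CPM in sorafenib. All 3 sorafenib libraries of M512 lay below every other library of the series, those of M222 lay below their own DMSO libraries, and those of MC overlapped them. Of all genes, 15.3% in M512 and 13.1% in M222 had every sorafenib library below every DMSO library. With M512 the mean level in sorafenib was 27.6% of that in DMSO, a log2 fold change of -1.88 (SE 0.25, edgeR adjusted p 2.89e-05, n = 3 against 3). The values with M222 and MC were -0.71 (SE 0.24, edgeR adjusted p 0.0923) and -0.13 (SE 0.24, edgeR adjusted p 0.839), and the mean over the 3 transfections was -0.91 (SE 0.14, edgeR adjusted p 3.56e-05). The raw counts behind the low libraries were 159, 102 and 199.

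Whether this response of CCNB1 differed between M512 and MC was tested by the interaction term. The difference in log2 fold change was -1.75 (95% interval -2.46 to -1.05, unadjusted edgeR p 2.99e-05), and its Benjamini-Hochberg adjusted p over all genes was 0.132 in edgeR. It passed the threshold with DESeq2 (-1.72, adjusted p 0.0091) and in edgeR without the filter on low counts (-1.76, adjusted p 9.79e-04). So edgeR called 0 members for this interaction, with 3 at an unadjusted p under 0.05, beside 0.00755% of all genes called. DESeq2 called 1 member, beside 15 genes in all. Under sorafenib the level in M512 was itself lower than in MC (log2 fold change -1.67, SE 0.25, edgeR adjusted p 0.0011), while in DMSO the log2 fold change was 0.08 (SE 0.24). When only the 6 libraries compared were fitted, the adjusted p for M512 against MC under sorafenib was 0.106.

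KIF20B and BIRC5 were the other members called with M512. KIF20B, a kinesin of the central spindle, at chr10:89701590-89774939, had 145, 203 and 153 CPM in M512 with DMSO and 86.2, 92.0 and 70.2 CPM with sorafenib. BIRC5 encodes survivin, a subunit of the chromosomal passenger complex, lies at chr17:78214186-78225636, and had 268, 243 and 249 CPM in DMSO and 168, 193 and 121 CPM in sorafenib. For both genes every sorafenib library of M512 lay below every DMSO library. Without overlap, 7 members were lower and 3 higher with sorafenib in M512, beside 15.3% and 14.6% of all genes. KIF20B fell by 1.04 on the log2 scale (SE 0.23, edgeR adjusted p 0.00521) and BIRC5 fell by 0.69 (SE 0.20, edgeR adjusted p 0.0261). Without M512_sorafenib replicate 3 the BIRC5 value was not called (adjusted p 0.107), and BIRC5 was called in 1 of 6 fits that each left out 1 library. KIF20B was called in 5 of 6, with an adjusted p of 0.0510 without M512_DMSO replicate 2. In all, 3 of 44 members (6.82%) were called in M512 by edgeR, each lower, beside 9.96% of all genes (4.62% lower and 5.34% higher). Of the 44, 32 had a negative log2 fold change in M512, with a median of -0.16 against -0.03 for all genes. In M222 and MC 22 and 20 were negative. CDC20, the activator of the anaphase promoting complex, had 66.2, 88.9 and 57.7 CPM in M512_DMSO and 106, 126 and 130 CPM in M512_sorafenib, which do not overlap. Its log2 fold change of 0.73 (SE 0.24, edgeR adjusted p 0.0524) was not called, but it was called higher by DESeq2 (adjusted p 0.0320), without the filter on low counts (0.0366) and with only the groups compared (0.0489). The interaction test did not call a different response in M512 than in MC for KIF20B or BIRC5 (KIF20B -0.52, 95% interval -1.20 to 0.16; BIRC5 -0.31, -0.89 to 0.26).

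With MC and M222 taken apart, 0 members were called for sorafenib by edgeR, beside 2.6% and 4.38% of all genes. In MC 5 members had an unadjusted p under 0.05, and DESeq2 called 1, CENPA, which was higher. In M222 the count at an unadjusted p under 0.05 was 8, and DESeq2 called 3, CCNB1 and KIF4A lower and ANLN higher. Over all genes DESeq2 called 729 in MC and 1028 in M222. The interaction of sorafenib with M222 gave 0 members in edgeR, in DESeq2 and at an unadjusted p under 0.05, beside 0% of all genes called by edgeR.

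**Figure D2:**
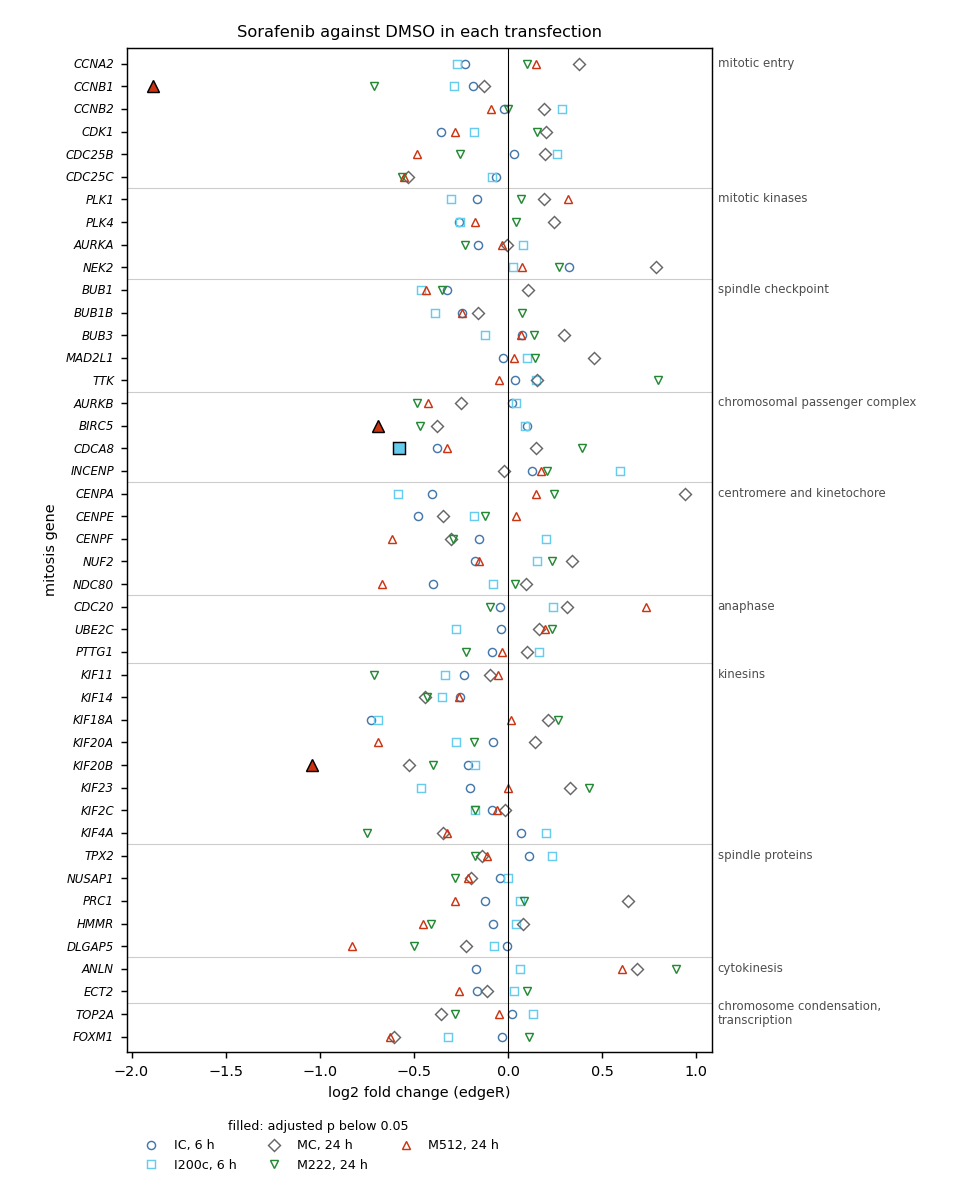
Log2 fold change of sorafenib against DMSO (x axis) for each of the 44 mitosis genes (y axis, ordered by role) in the 5 transfections, with filled symbols at an adjusted p under 0.05 in edgeR. CCNB1 with M512 (-1.88) lies far below the rest, and most symbols lie within 0.5 of 0.

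The remaining 24 h calls came from averaging over transfections. CDC25C, the phosphatase that activates CDK1, had 39.0 to 55.3 CPM in MC_DMSO, 47.8 to 71.4 in M222_DMSO and 41.5 to 63.9 in M512_DMSO. Under sorafenib it had 21.6 to 41.9, 35.2 to 43.5 and 29.5 to 43.7 CPM in the same order. Its log2 fold change was -0.55 (SE 0.15, edgeR adjusted p 0.00867), and the values in MC, M222 and M512 were -0.53, -0.56 and -0.55. AURKB, the kinase of the passenger complex that corrects faulty attachments, had 126, 132 and 154 CPM in MC_DMSO and 100, 151 and 93.7 CPM in MC_sorafenib, which overlap. Its mean log2 fold change was -0.39 (SE 0.12, edgeR adjusted p 0.0187), and it was called in 12 of 18 fits that each left out 1 library, with an adjusted p of up to 0.0693 without MC_sorafenib replicate 3. KIF4A, a chromosome-bound kinesin, fell by 0.47 (SE 0.13, edgeR adjusted p 0.00916), with the widest gap in M222, where DMSO libraries had 77.6, 75.5 and 65.6 CPM and sorafenib libraries 42.5, 53.3 and 34.7 CPM.

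ANLN, at chr7:36389821-36453791, encodes anillin, the scaffold of the contractile ring in cytokinesis, and moved the opposite way. It had 47.8, 70.6 and 25.3 CPM in MC_DMSO and 83.1, 66.3 and 80.1 CPM in MC_sorafenib. In M222 it had 59.9, 50.3 and 40.6 CPM in DMSO and 114, 83.7 and 82.5 CPM in sorafenib, and in M512 43.1, 60.4 and 84.8 CPM in DMSO and 97.3, 101 and 94.6 CPM in sorafenib. The groups did not overlap in M222 or M512 and overlapped in MC, where MC_DMSO replicate 2 stood above 1 sorafenib library. Of all genes, 13.7% in M222 and 14.6% in M512 had every sorafenib library above every DMSO library. Averaged over the 3 transfections ANLN rose by 0.73 on the log2 scale (SE 0.16, edgeR adjusted p 0.00192), with 0.69, 0.89 and 0.60 in MC, M222 and M512. At 6 h the mean log2 fold change was -0.05 (SE 0.13).

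**Figure D3:**
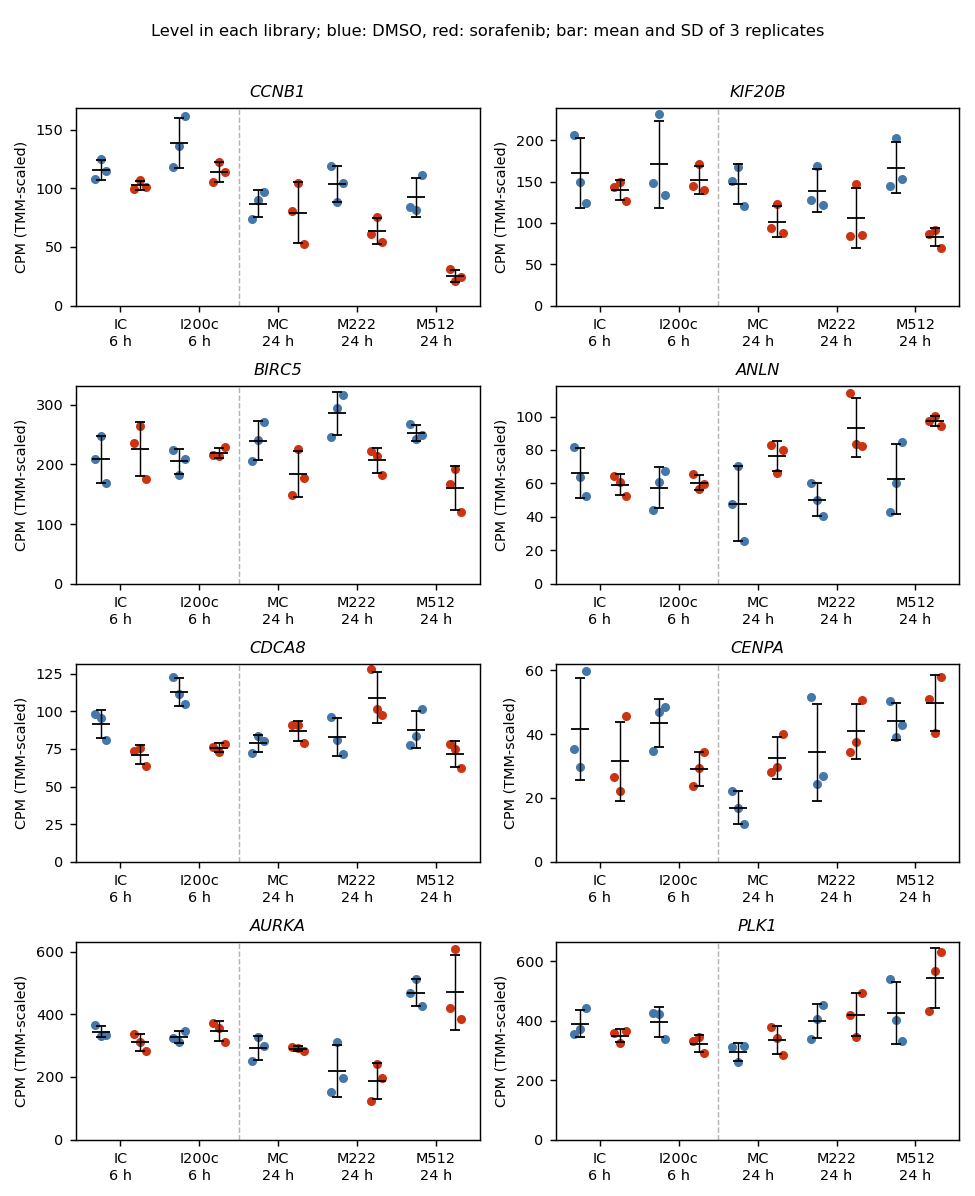
Level in CPM, TMM-scaled (y axis), of 8 mitosis genes in each of the 30 libraries by transfection and treatment time (x axis), with DMSO in blue and sorafenib in red, each point a library and each bar the mean and SD of 3 replicates. CCNB1 drops to 20.7 to 30.9 CPM in M512 with sorafenib, and the mean of AURKA is lower in M222 and higher in M512 than in MC in both treatments.

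By role, calls at 24 h were spread over 4 classes, and classes were not tested as such. The mitotic entry genes had 2 of 6 members called lower (CCNB1 and CDC25C), and CDK1 itself, the kinase both act on, had a mean log2 fold change of 0.03 (95% interval -0.24 to 0.29). The chromosomal passenger complex had 2 of 4 called lower, AURKB and BIRC5, and the kinesins 2 of 8, KIF20B and KIF4A. Over all 44 members the share called lower was 13.6%, beside 12.4% of all genes. None of the 4 mitotic kinases PLK1, PLK4, AURKA and NEK2, the 5 spindle checkpoint genes, the 5 centromere and kinetochore genes, the 3 anaphase genes or the 5 spindle proteins was called. Their median log2 fold changes were 0.11, 0.17, -0.14, 0.20 and -0.23. TOP2A and FOXM1, which form the remaining class, were not called either.

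The members with defining roles that were not called had intervals that allow changes in either direction. That of FOXM1 reached -0.89, near the called mean of CCNB1 (-0.91). PLK1, the Polo kinase needed for spindle assembly, had 311, 260 and 315 CPM in MC_DMSO, 380, 342 and 285 in MC_sorafenib, 338, 405 and 451 in M222_DMSO and 420, 347 and 492 in M222_sorafenib. In M512 it had 539, 403 and 333 CPM in DMSO and 431, 566 and 632 in sorafenib, so that treated and untreated libraries overlapped in all 3 transfections. Its mean log2 fold change was 0.19 (95% interval -0.05 to 0.43). TOP2A had 1955, 2903 and 1975 CPM in M512_DMSO and 2172, 3504 and 1101 CPM in M512_sorafenib, a spread as wide as the whole 24 h experiment, and a mean log2 fold change of -0.23 (95% interval -0.55 to 0.09). FOXM1, the transcription factor that activates many of these genes, had 12.5 to 43.5 CPM in the 6 MC libraries, 20.7 to 76.0 in those of M222 and 28.6 to 78.2 in those of M512, with a mean log2 fold change of -0.37 (95% interval -0.89 to 0.14).

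At 6 h few members were called. In IC, 0 of 44 members were called by edgeR or DESeq2, with 2 at an unadjusted p under 0.05, beside 0.0393% of all genes. In I200c 1 member was called, CDCA8, beside 2.28% of all genes, and the same gene was the 1 call when both transfections were averaged, beside 2.89% of all genes. CDCA8, at chr1:37692481-37709719, encodes borealin, which anchors the passenger complex at centromeres. Its level was 98.0, 95.9 and 81.2 CPM in IC_DMSO, 74.0, 75.6 and 64.0 in IC_sorafenib, 123, 112 and 105 in I200c_DMSO and 76.4, 72.7 and 78.6 in I200c_sorafenib. The sorafenib libraries lay below the DMSO libraries in both transfections. Of all genes, 6.35% in IC and 8.72% in I200c were lower without overlap. CDCA8 fell by 0.58 in I200c (SE 0.14, edgeR adjusted p 0.0372) and by 0.48 on average (SE 0.10, edgeR adjusted p 0.0127). The call in I200c was kept in 1 of 6 fits that left out 1 library, with an adjusted p of up to 0.149 without I200c_sorafenib replicate 2, and the average was kept in 11 of 12, missing without IC_sorafenib replicate 3 (0.0508). At 24 h the mean log2 fold change of CDCA8 was 0.07 (95% interval -0.16 to 0.30). The interaction of sorafenib with I200c gave 0 members in edgeR, in DESeq2 and at an unadjusted p under 0.05, beside 0% of all genes called by edgeR.

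Of the 44 members, 34 had a negative log2 fold change in IC, with a median of -0.10 against 0.00 for all genes. That median ran from -0.17 to -0.04 over fits that each left out 1 library. The members' mean log2 CPM was 6.12 to 6.32 in IC_DMSO and 5.98 to 6.19 in IC_sorafenib, which overlap. In I200c 23 members were negative and 21 positive, with a median of -0.08 against 0.00 that was 0.03 without I200c_DMSO replicate 2. Without overlap, 5 members were lower and 1 higher with sorafenib in IC, beside 6.35% and 6.63% of all genes. CDK1 had 116, 106 and 99.0 CPM in IC_DMSO and 86.9, 90.4 and 75.7 CPM in IC_sorafenib, which do not overlap, and 96.2, 126 and 96.6 against 92.4, 102 and 88.4 CPM in I200c, which do. Its mean log2 fold change was -0.27 (SE 0.11, edgeR adjusted p 0.227). KIF18A, the member with the lowest mean level, had the largest uncalled value averaged over both transfections at 6 h, -0.71 (SE 0.25, edgeR adjusted p 0.155).

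The oligonucleotides alone changed few members. The inhibitor of miR-200c-3p gave 0 called members in DMSO and 0 in sorafenib in edgeR and in DESeq2, with 2 and 1 at an unadjusted p under 0.05, beside 0.0157% and 0% of all genes. The 6 members with a site for miR-200c-3p had log2 fold changes in DMSO of -0.36 for CDC25B to 0.32 for KIF11, the motor that separates spindle poles. The mimic of miR-222-5p gave 0 called members in either treatment in edgeR and in DESeq2, with 7 and 4 at an unadjusted p under 0.05, beside 0% and 0% of all genes called by edgeR. The mimic of miR-512-3p gave 1 called member in DMSO, CENPA, and 1 in sorafenib, CCNB1, beside 0.634% and 0.355% of all genes.

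CENPA, at chr2:26764289-26801067, encodes the histone H3 variant that marks centromeres. It had 22.1, 17.0 and 11.8 CPM in MC_DMSO and 50.4, 38.9 and 43.0 CPM in M512_DMSO, which do not overlap. Without overlap, 10 members were higher and 2 lower in M512 than in MC in DMSO, beside 10.9% and 10.6% of all genes. CENPA was higher in M512 by 1.37 on the log2 scale (SE 0.30, edgeR adjusted p 0.0297). The call was kept without MC_DMSO replicate 1 (adjusted p 0.0363) and was lost when any of the other 5 libraries was left out, with an adjusted p of up to 0.233 without MC_DMSO replicate 3. M222_DMSO had 51.7, 24.3 and 26.9 CPM against the same control, a log2 fold change of 1.00 (edgeR adjusted p 0.406), and IC_DMSO at 6 h had 35.4, 29.8 and 59.7 CPM.

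AURKA, at chr20:56369389-56392337 on the minus strand, encodes Aurora A, the kinase of the spindle poles, and it separated the mimics. In DMSO it had 151, 311 and 196 CPM in M222, 252, 329 and 298 in MC and 466, 514 and 426 in M512. In sorafenib it had 124, 241 and 197 CPM in M222, 297, 293 and 283 in MC and 420, 607 and 384 in M512. Every M512 library lay above every M222 and MC library of the same treatment, and in sorafenib every M222 library lay below every MC library. Of all genes, 10.9% and 7.19% were higher without overlap in M512 than in MC, in DMSO and sorafenib. The shares were 9.36% and 6.98% for M512 above M222, and 6.04% for M222 below MC in sorafenib. The log2 fold change of M512 against M222 was 1.11 in DMSO (SE 0.25, edgeR adjusted p 0.0296) and 1.31 in sorafenib (SE 0.25, edgeR adjusted p 0.0123). AURKA was called in 1 and 3 of 6 fits that left out 1 library, with adjusted p up to 0.184 without M222_DMSO replicate 3 and 0.135 without M222_sorafenib replicate 1. Against MC neither mimic was called, with M222 at -0.44 and -0.66 and M512 at 0.68 and 0.65 in DMSO and sorafenib. Both of these comparisons use the same MC libraries, while M512 against M222 does not.

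These comparisons of mimic with mimic called 1 member in DMSO (AURKA), beside 0.748% of all genes, and 2 in sorafenib (AURKA higher and CCNB1 lower), beside 0.385%. CCNB1 was lower in M512 than in M222 under sorafenib (log2 fold change -1.33, SE 0.25, edgeR adjusted p 0.0111). That adjusted p was 0.0562 without M512_sorafenib replicate 2 and 0.111 when only the libraries compared were fitted. PRC1, which bundles the central spindle, and TTK, the kinase that starts checkpoint signalling, were the nearest members not called, with -0.87 (edgeR adjusted p 0.0929) and -1.20 (edgeR adjusted p 0.0834), and DESeq2 called both.

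Of the members with a printed site, AURKA had -0.44 and -0.66 for M222 against MC in DMSO and sorafenib. In DMSO its M222 and MC libraries overlapped. KIF4A had 0.05 and -0.36 and BUB3, a checkpoint protein bound to kinetochores, 0.20 and 0.04 for M222 against MC in DMSO and sorafenib. None of these values was called, and whether the sites act was not tested.

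**Figure D4:**
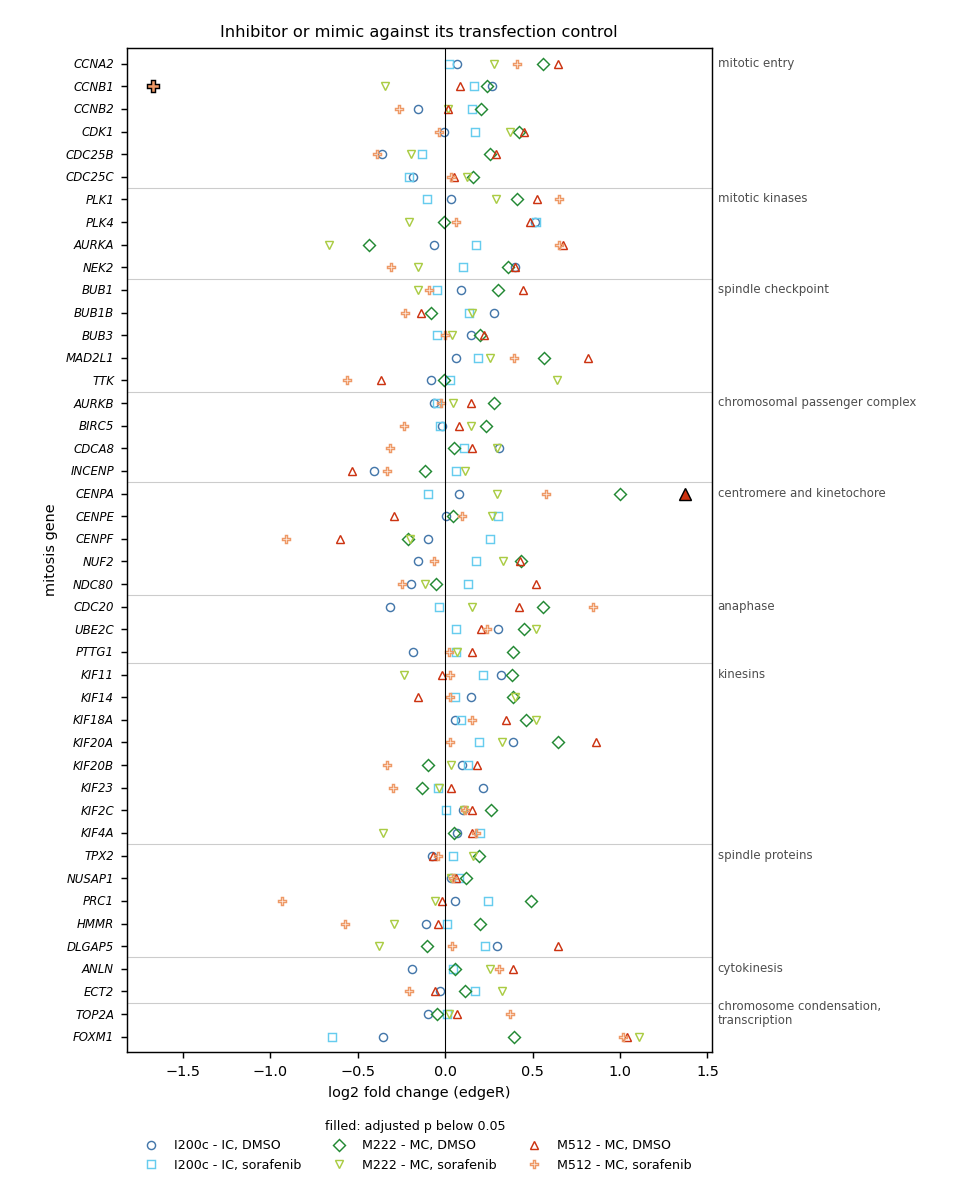
Log2 fold change of the inhibitor or a mimic against its own transfection control (x axis) for each of the 44 mitosis genes (y axis, ordered by role), in DMSO and in sorafenib, with filled symbols at an adjusted p under 0.05 in edgeR. CENPA with M512 in DMSO (1.37) and CCNB1 with M512 in sorafenib (-1.67) are the filled symbols.

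The mean log2 CPM over the 44 was 5.85 to 6.08 in the 3 MC_DMSO libraries, 6.14 to 6.25 in M222_DMSO, 6.07 to 6.26 in M512_DMSO and 6.12 to 6.32 in IC_DMSO, so that MC_DMSO overlapped M512_DMSO. The S phase genes were also lowest in MC_DMSO among the DMSO groups, with a mean of 5.55 against 5.87 to 6.06. These group levels were not tested. M222 against MC and M512 against MC, which share those libraries, each had 33 of 44 positive values in DMSO, with medians of 0.22 and 0.15 against -0.01 for all genes. MC_DMSO against IC_DMSO, which uses them again, had 33 negative values and a median of -0.19 against 0.02. In edgeR 0 members were called, beside 0.528% of all genes, with 9 members at an unadjusted p under 0.05. DESeq2 called 3 members (CCNA2, CDK1 and CENPA, all lower), beside 442 genes in all. Treatment time and the kind of control oligonucleotide change together in that comparison and cannot be told apart. The difference between the sorafenib responses of MC and IC gave 0 called members in edgeR and 0 in DESeq2, with 5 at an unadjusted p under 0.05, beside 0.216% of all genes.

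**Figure D5:**
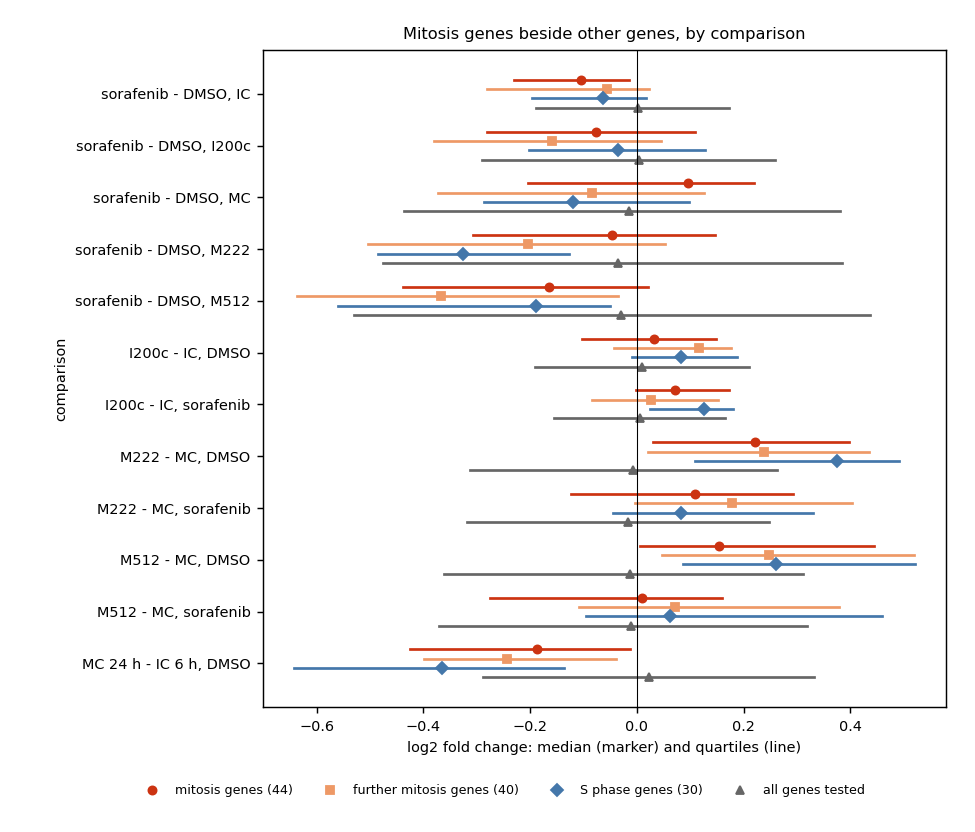
Median (marker) and quartiles (line) of the log2 fold change (x axis) in 12 comparisons (y axis) for the 44 mitosis genes, 40 further mitosis genes, 30 S phase genes and all genes tested. For sorafenib in IC, I200c, MC, M222 and M512 the medians of the mitosis genes were -0.10, -0.08, 0.10, -0.05 and -0.16. Those of all genes were 0.00, 0.00, -0.01, -0.03 and -0.03. For the mimics in DMSO the mitosis genes had 0.22 with M222 and 0.15 with M512, against -0.01 for all genes.

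Other genes of the pathway were counted from fixed lists, beside the 12.4% of all genes called lower and 13.4% called higher at 24 h. Of 40 further mitosis genes, 10 fell and 4 rose with sorafenib at 24 h, with a median of -0.21. Among them ASPM, which focuses spindle poles, fell by 1.17 (SE 0.17, edgeR adjusted p 2.41e-05), and KIFC1, a minus-end kinesin, fell by 0.60 (SE 0.14, edgeR adjusted p 0.00198). Of 30 S phase genes 6 fell and 0 rose, with a median of -0.24, GINS1, a subunit of the replicative helicase, falling by 0.90. Of 14 tested genes of the anaphase promoting complex 2 rose, ANAPC1 and CDC23, and 1 fell, ANAPC15. Of 13 condensin and cohesin genes 2 rose, NCAPD3 and SMC3. Median values of these last lists were 0.01 and 0.07.

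Of 17 tested regulators of mitotic transcription, 5 fell and 2 rose at 24 h. E2F8, a repressor of cell cycle genes, had a mean of 8.01 CPM (SD 3.25, n = 3) in MC_DMSO and 2.55 (SD 2.43) in MC_sorafenib, and its mean log2 fold change was -2.16 (SE 0.48, edgeR adjusted p 0.0016). At 6 h its means were 14.2 CPM (SD 5.00) in I200c_DMSO and 2.64 (SD 0.265) in I200c_sorafenib. The log2 fold change in I200c was -2.43 (SE 0.35, edgeR adjusted p 5.54e-04). Averaged over IC and I200c it was less negative, at -1.69 (SE 0.24, edgeR adjusted p 3.50e-04). Of 16 tested CDK inhibitors and G1 cyclins, 2 rose and 2 fell at 24 h. CDKN1A, which encodes the CDK inhibitor p21, was among those that rose, by 0.72 (SE 0.11, edgeR adjusted p 4.53e-05), and it fell by 0.51 at 6 h (SE 0.13, edgeR adjusted p 0.0300). In M512 its mean was 76.7 CPM (SD 11.5, n = 3) in DMSO and 223 CPM (SD 34.9) in sorafenib, a log2 fold change of 1.51 (SE 0.20, edgeR adjusted p 2.78e-05). In DMSO CDKN1A was lower in M512 than in MC (151 CPM, SD 27.6), with a log2 fold change of -0.98 (SE 0.20, edgeR adjusted p 0.0183), so that this rise started from a lower level, and in MC_sorafenib the mean was 193 CPM (SD 24.0).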

How the data were processed

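RNA from 30 HepG2 libraries was measured by QuantSeq 3′ FWD sequencing. The authors deposited raw read counts per gene, made with the Bluebee pipeline for this kit. The submitters' processing notes name DRAGEN, STAR, HTSeq, DESeq2 and the build GRCh38, without versions, while the release of the annotation, strand handling and molecular identifiers are not given in the sources used here. A deposited normalised table was not used. The count table held 60107 genes, of which 56104 IDs were matched to a symbol, and 92 lines naming no gene, with 3 counts in all, which were left out.

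Counts were tested with edgeR 4.0.16 in R 4.3.3 (quasi-likelihood F test, TMM scaling, filterByExpr by group, 1 coefficient per group) in the 12 libraries of 6 h (12738 genes), the 18 of 24 h (13244 genes) and the 12 of the transfection controls (12500 genes). The p-values were adjusted by the Benjamini-Hochberg method over all genes tested in each of 20 comparisons, with a threshold of 0.05. The scripts were tested on simulated counts. Alternatives were DESeq2 1.42.0, no filter, total-count and relative log expression scaling, only the groups compared, a replicate block and each library left out. Counting limits cover counting error only.

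Values in single libraries are printed for members called in any comparison and for CDK1, PLK1, TOP2A and FOXM1, in part as ranges. For each of these genes they are printed for only some of the 10 groups, so they are not the full record. From the other lists, up to 4 called genes per comparison with the lowest adjusted p were eligible to be named. The members and lists were chosen with earlier results of these data known. Whether replicate numbers pair the libraries was checked by correlating same-numbered deviations from the group means. Only M222 against MC in DMSO had every value above 0.1 (0.121 to 0.147), and the labels name no shared batch. The sequences of the miR-512-3p sites are not reported here.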

Additional observations from a re-analysis of the deposited data

How the results depend on the processing

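No value reversed a call in any alternative. Without the filter on low counts, members called were 0 for sorafenib in I200c, 1 in MC, 1 in M222, 4 in M512 (1 of them higher) and 10 averaged at 24 h, 2 for M512 against MC in DMSO and 4 in sorafenib, 3 for M512 against M222 in sorafenib, 1 for the M512 interaction, 4 for MC_DMSO against IC_DMSO and 1 for the time interaction. Over all genes the same comparisons gave, in this order, 519, 684, 861, 1427, 3469, 292, 169, 160, 28, 573 and 386 calls. In the main fit they gave 291, 344, 580, 1319, 3417, 84, 47, 51, 1, 66 and 27 calls over all genes. With total counts, members called were 1 for sorafenib in M222, 7 in M512 and 12 averaged at 24 h, and 2 for M512 against MC in sorafenib. Genes called in all were 626, 1543, 3666 and 91 in the same order. This scaling moved the median of all genes under sorafenib at 24 h from -0.04 to -0.17, and turned the sign of the members' median for sorafenib in MC (0.10 to -0.01) and for M512 against MC in sorafenib (0.01 to -0.12). With the replicate block, members called were 1 for sorafenib in M222, 6 in M512 and 2 for M512 against MC in sorafenib, 3 for M512 against M222 in sorafenib, 10 averaged at 24 h and 0 for M222 against MC in DMSO. Over all genes the calls were 748, 1520, 89, 98, 3653 and 3. M222 against MC in DMSO was the comparison whose same-numbered deviations all correlated above 0.1, and whether its libraries are paired is not known. With DESeq2, members called were 1 in MC, 3 in M222, 4 in M512 (1 of them higher), 2 and 3 for M512 against MC in DMSO and sorafenib, 4 for M512 against M222 in sorafenib, 1 for the M512 interaction and 3 for MC_DMSO against IC_DMSO. DESeq2 called 729, 1028, 1820, 232, 237, 207, 15 and 442 genes in all in these comparisons. With only the groups compared, members called were 0 in I200c, 1 in M222, 3 in M512 (1 of them higher), and 0 for M512 against MC and against M222 in sorafenib. The calls over all genes were 113, 523, 1082, 0 and 5. The cause of these shifts was not tested.

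Leaving out 1 library at a time gave 0 to 1 members called for sorafenib in I200c, 0 to 2 in MC, 0 to 1 in M222, 2 to 4 in M512, 0 to 1 averaged at 6 h and 6 to 11 averaged at 24 h. Over all genes these fits called 129 to 503, 112 to 602, 204 to 734, 760 to 1232, 202 to 465 and 2951 to 3626. Members called were 0 to 1 and 1 to 2 for M512 against MC in DMSO and sorafenib, 0 to 1 and 0 to 2 for M512 against M222, 0 to 1 for the M512 interaction and 0 to 4 for MC_DMSO against IC_DMSO. Here the calls over all genes were 18 to 44, 18 to 48, 16 to 115, 19 to 79, 1 to 3 and 1 to 429. With 3 libraries a group, the median standard error of a member in a single 24 h transfection was 0.25 on the log2 scale, and values of up to 0.94 in MC, 0.89 in M222 and 0.83 in M512 were not called.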

Other observations

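Of the 8 hepatic markers, 5 fell and 0 rose with sorafenib at 24 h, beside 12.4% of all genes called lower, and 3 were not called. Those that fell were HNF4A, a transcription factor of hepatocytes, by 1.00 on the log2 scale (SE 0.12), APOB, the apolipoprotein of secreted lipoprotein particles, by 1.06 (SE 0.15), together with TTR, AFP and ALB. The median log2 fold change of the 8 was 0.05 at 6 h and -0.49 at 24 h. The marker MKI67, a coat protein of mitotic chromosomes outside the 44 members, fell by 0.59 at 24 h (SE 0.16, edgeR adjusted p 0.00628) and was singled out after its values were seen.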
